A study of Schizosaccharomyces pombe with 9 samples.

Results

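The transcripts described are those of 4 fission yeast genes at the pyruvate branch of carbon metabolism: pdc101 (SPAC1F8.07c), adh1 (SPCC13B11.01), adh4 (SPAC5H10.06c) and mae2 (SPCC794.12c). They were chosen by gene name for what their products do, with earlier results of these data known. They are 4 of the 6988 gene IDs in the deposited count matrix. The study compared poly(A)+ RNA from Schizosaccharomyces pombe cells of 3 genotypes with 3 biological replicates each, to find which transcripts depend on Snf22, the ATPase of the chromatin remodeling complex SWI/SNF. The WT strain has mating type h- and is labelled with no marker. The strain h- snf22∆::kanMX (snf22∆) has the start and most of the snf22 reading frame replaced by a drug resistance cassette, with only the end of the frame left in place. Its mating type is given here as in the labels. The paper's strain list has snf22∆::kanMX with no other marked gene as h+, and as h- with a marked wild-type rpb1 gene. The strain h- snf22-(D996A-E997A)::kanMX has a pair of alanine substitutions in the ATPase active site, and the same cassette sits downstream of the allele behind a poly(A) site from the nmt1 gene. All cultures were in log phase in YES, a rich medium that contains glucose, at 30°C. Each genotype was 1 strain, so strain and genotype cannot be told apart, and neither can the cassette from the mutation.

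When yeast ferment glucose, pyruvate from glycolysis is decarboxylated to acetaldehyde, and an alcohol dehydrogenase reduces acetaldehyde to ethanol and returns NADH to NAD. Pdc101 is a pyruvate decarboxylase and Adh1 is the main zinc-dependent alcohol dehydrogenase of fission yeast. Adh4 is an alcohol dehydrogenase of the iron-activated family, and in fission yeast adh4 is turned on when zinc is scarce while adh1 is turned down. Mae2 is malic enzyme, which makes pyruvate from malate by oxidative decarboxylation, and it works with the malate transporter Mae1 when cells take up and degrade malate.

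Library totals ran from 15696972 to 22664218 counts, and the 10 most abundant genes took 6.43% to 9.17% of a library. Testing was limited to the 6091 genes that reached 10 counts in 3 or more of the 9 libraries, and all 4 genes were among them. Snf22 mRNA itself averaged 2784 ± 48.6 normalized counts in WT (SD, n = 3), while snf22∆ cells had 1357 ± 126 and snf22-(D996A-E997A) cells 2183 ± 190. The deletion lowered it as labelled, by 2.05-fold. In snf22-(D996A-E997A) it also passed the test as lower, by 1.28-fold. The counts carry no base-level check of the point mutation. WT replicate 2 stood apart from the other WT libraries: the chi-square per gene between it and WT replicates 1 and 3 was 70.8 and 59.3, against 9.20 between those 2. Replicate 1 of snf22-(D996A-E997A) was likewise at 32.9 and 34.9 from its partners, which were 5.15 from each other. All 5 M-cell marker genes, the ones that h- cells express, passed the test as lower in snf22∆ and as higher in snf22-(D996A-E997A). Of all genes tested, 25.8% passed as lower in snf22∆ and 25.8% as higher in snf22-(D996A-E997A). At the 2-fold call described below, 1 of the 5 was lower in snf22∆ and 2 were higher in snf22-(D996A-E997A). Among all genes tested, 3.09% were called lower in snf22∆ and 1.9% higher in snf22-(D996A-E997A). Raw counts in WT and snf22∆ were low for mfm1 (13 to 50) and mfm3 (14 to 35), and mam2 in snf22∆ overlapped WT. Of 3 P-cell genes, map2 fell in both mutants (raw counts 77 to 199), map1 rose in snf22-(D996A-E997A) and did not pass in snf22∆, and map3 passed in neither. The part of these differences in the results below was not tested.

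Relative to WT, the fermentation transcripts and the other pair moved in opposite directions. In snf22-(D996A-E997A) cells, pdc101 and adh1 rose 1.73-fold and 1.71-fold, while adh4 fell 3.80-fold and mae2 fell 5.61-fold. In snf22∆ cells pdc101 rose 1.50-fold, adh4 fell 3.16-fold and mae2 fell 2.74-fold, and adh1 did not pass the test. The mutants differed from each other in adh1 and mae2. Both mutant comparisons use the same 3 WT libraries, so an error in WT enters each of them. RNA came from whole cultures, so that a smaller share of cells with a transcript and less of it per cell cannot be told apart.

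**Figure D1:**
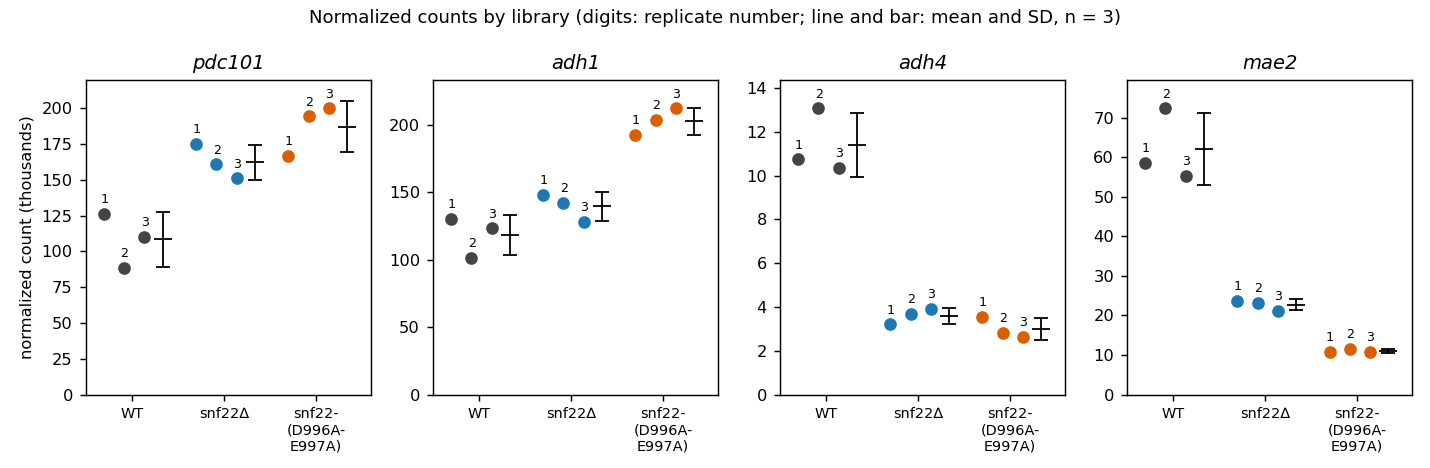
Normalized count, divided by 1000, of pdc101, adh1, adh4 and mae2 in each library, with the replicate number beside each point and the mean and SD of 3 replicates beside each group. The pdc101 points of both mutants lie above every WT point, the adh4 and mae2 points of both mutants lie below every WT point, and adh1 is above every other library only in snf22-(D996A-E997A).

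Pdc101 encodes the enzyme that commits pyruvate to fermentation. Its normalized count was 126171, 88558 and 110372 in WT replicates 1 to 3, 175040, 160730 and 150979 in snf22∆, and 166806, 194304 and 199924 in snf22-(D996A-E997A). Every mutant library was above every WT library, and the mutant groups overlapped each other. The group means were 108367 ± 18887, 162250 ± 12103 and 187012 ± 17723 (SD, n = 3). The log2 fold change of pdc101 relative to WT was 0.58 in snf22∆ (standard error 0.13, adjusted p = 0.00287 by edgeR's quasi-likelihood test with Benjamini-Hochberg adjustment over all genes tested). In snf22-(D996A-E997A) it was 0.79 (standard error 0.13, edgeR quasi-likelihood adjusted p = 0.00069). Both rises were under the 2-fold size that the study's methods require of a called gene, along with an adjusted p of 0.05 or less and an average of 100 or more normalized counts in the higher group. The difference between the mutants was 0.20 on the log2 scale (95% interval −0.07 to 0.48, edgeR quasi-likelihood adjusted p = 0.306), so that a difference of either sign lies within the interval. Without WT replicate 2, whose pdc101 count was the lowest, the log2 fold changes were 0.42 and 0.65 (edgeR quasi-likelihood adjusted p = 0.00502 and 0.000505).

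Adh1, which turns acetaldehyde into ethanol, was the one gene of the 4 that separated the mutants upward. Its normalized count was 129944, 101365 and 123158 in WT, 148073, 142147 and 127794 in snf22∆, and 192070, 203147 and 212009 in snf22-(D996A-E997A). All 3 snf22-(D996A-E997A) libraries were above the other 6, while the lowest snf22∆ library lay inside the WT range. The means were 118156 ± 14932, 139338 ± 10427 and 202408 ± 9990 (SD, n = 3). The log2 fold change relative to WT was 0.78 in snf22-(D996A-E997A) (standard error 0.11, edgeR quasi-likelihood adjusted p = 0.000221), a change of 1.71-fold that is below the size for a call. In snf22∆ it was 0.24 (standard error 0.11, 95% interval 0.01 to 0.47), which did not pass (edgeR quasi-likelihood adjusted p = 0.0743). That result turned on single WT libraries: without WT replicate 1 it was 0.31 and passed (edgeR quasi-likelihood adjusted p = 0.0479), and without WT replicate 2 it was 0.11 and did not (adjusted p = 0.31). Direct comparison of the mutants gave 0.54 higher in snf22-(D996A-E997A) (standard error 0.11, edgeR quasi-likelihood adjusted p = 0.00546), a difference of 1.45-fold.

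Adh4, the iron-activated alcohol dehydrogenase, went the other way from adh1. WT had 10743, 13072 and 10367 normalized counts of adh4, snf22∆ had 3206, 3701 and 3923, and snf22-(D996A-E997A) had 3557, 2831 and 2618. The lowest WT library held more than any mutant library, and the mutant groups overlapped. The means were 11394 ± 1465, 3610 ± 367 and 3002 ± 492 (SD, n = 3). The log2 fold change was −1.66 in snf22∆ (standard error 0.13, edgeR quasi-likelihood adjusted p = 1.95e-06). For snf22-(D996A-E997A) it was −1.92 (standard error 0.13, edgeR quasi-likelihood adjusted p = 1.05e-06), and the gene was called lower in each mutant. Between the mutants the difference was −0.27 (95% interval −0.54 to 0.01, edgeR quasi-likelihood adjusted p = 0.175), which did not pass. Without WT replicate 2, the WT library with the most adh4, the falls were −1.58 and −1.83 on the log2 scale.

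Mae2, malic enzyme, fell most in snf22-(D996A-E997A) and to an intermediate level in snf22∆. Its normalized count was 58564, 72313 and 55268 in WT, 23726, 23212 and 21089 in snf22∆, and 10769, 11569 and 10832 in snf22-(D996A-E997A). The 3 genotypes did not overlap at any point. The means were 62048 ± 9041, 22676 ± 1398 and 11056 ± 445 (SD, n = 3). The log2 fold change relative to WT was −1.45 in snf22∆ (standard error 0.10, edgeR quasi-likelihood adjusted p = 1.04e-06). It reached −2.49 in snf22-(D996A-E997A) (standard error 0.11, edgeR quasi-likelihood adjusted p = 2.22e-08). The mutants differed from each other by −1.04 (standard error 0.10, edgeR quasi-likelihood adjusted p = 4.37e-05), lower in snf22-(D996A-E997A) by 2.05-fold. Mae2 was called lower in all 3 comparisons, the last of them close to the size limit of 2-fold. Leaving out WT replicate 2, which had the most mae2, gave −1.36 and −2.38 relative to WT.

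In snf22∆ against WT, 1 of the 4 genes passed the test as higher (pdc101), 2 as lower (adh4 and mae2) and adh1 did not pass. Of all 6091 genes tested, 30.2% passed as higher and 25.8% as lower in that comparison, so a passed test alone is common there. At the call that also asks for 2-fold and 100 counts, 0 of the 4 were higher and 2 lower, against 2.56% and 3.09% of all genes. In snf22-(D996A-E997A) against WT, 2 passed as higher and 2 as lower, against 25.8% and 22.7% of all genes, and 0 were called higher and 2 lower, against 1.9% and 3.07%. Between the mutants, adh1 passed as higher and mae2 as lower in snf22-(D996A-E997A), where 8.13% and 8.64% of all genes did. There 0 of the 4 were called higher and 1 lower, against 0.969% and 0.887%. Because the 4 genes were chosen with earlier results of these data known, these counts are a description. The median log2 fold change of the 4 was −0.61, −0.57 and −0.03 in the 3 comparisons, beside 0.02, 0.02 and −0.02 for all genes tested, and with 2 genes on each side such a median lies between them and describes neither pair.

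The place of each gene among all 6091 log2 fold changes shows how unequal the 2 directions were. In snf22∆ only 123 genes had a lower log2 fold change than adh4 and 166 a lower one than mae2. On the rising side 933 genes were above pdc101 and 2145 above adh1, both within the bulk of the distribution. In snf22-(D996A-E997A), 87 genes lay below mae2 and 148 below adh4, and 304 and 321 lay above pdc101 and adh1. Between the mutants, 179 genes lay below mae2 and 232 above adh1.

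**Figure D2:**
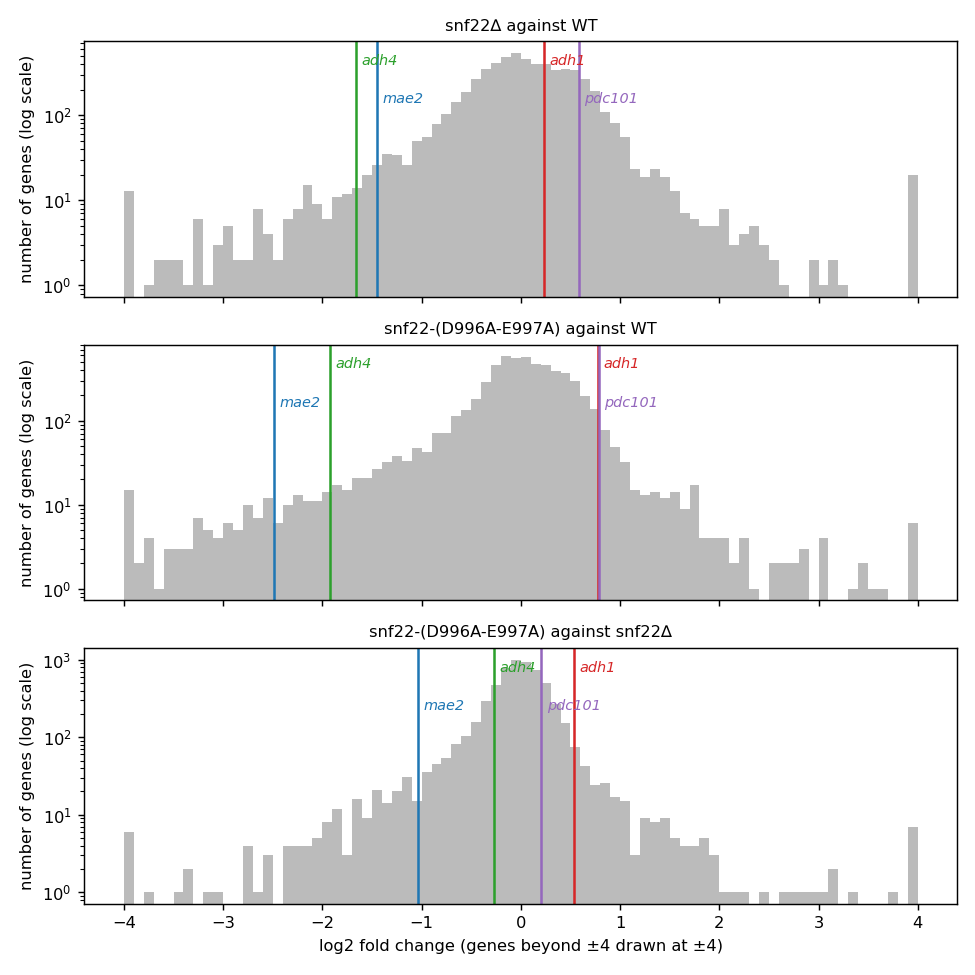
Histograms of the log2 fold change of the 6091 genes tested in the 3 comparisons (vertical axis: number of genes, log scale), with a vertical line at adh1, pdc101, adh4 and mae2. The lines of adh4 and mae2 stand in the lower tail for both mutants against WT. Those of pdc101 and adh1 lie within the bulk in snf22∆ and on the upper shoulder in snf22-(D996A-E997A). In the lowest panel mae2 and adh1 stand outside the centre.

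Within a library, levels of different genes can be compared once counts are divided by exon length, here the summed exon length of the ASM294v3 annotation (1598 bases for adh1, 1503 for adh4, 2002 for mae2 and 1883 for pdc101). In WT the mean level was 73940 normalized counts per kilobase for adh1, 57550 for pdc101, 30993 for mae2 and 7581 for adh4. Adh1 and pdc101 therefore stood near the glycolytic enzyme pyruvate kinase (pyk1, 73681 per kilobase), which delivers the pyruvate. In snf22-(D996A-E997A) the levels became 126664 for adh1 and 99316 for pdc101, and 5523 for mae2 and 1997 for adh4, per kilobase. By rank among 6848 genes with a length, adh1 stood 13th, 49th and 12th in WT replicates 1 to 3, 7th or 8th in snf22∆ and 3rd in each snf22-(D996A-E997A) library. The low WT rank was that of replicate 2 alone, and without it the WT ranks were 12 and 13. Mae2 moved from ranks 128 to 141 in WT to 248 to 270 in snf22∆ and 432 to 474 in snf22-(D996A-E997A).

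Ratios taken inside 1 library do not depend on how libraries are scaled, and they are given as a description with no test. Adh1 per kilobase was 11.4, 7.29 and 11.2 times adh4 in the WT libraries, 43.4, 36.1 and 30.6 times in snf22∆, and 50.8, 67.5 and 76.2 times in snf22-(D996A-E997A). The groups did not overlap, and their means were 9.95 ± 2.30, 36.7 ± 6.42 and 64.8 ± 12.9 (SD, n = 3). Pdc101, which consumes pyruvate, was 2.29, 1.30 and 2.12 times mae2, which makes it, in WT, 7.84, 7.36 and 7.61 times in snf22∆ and 16.5, 17.9 and 19.6 times in snf22-(D996A-E997A). That ratio also separated the 3 genotypes, with means of 1.91 ± 0.529, 7.61 ± 0.241 and 18.0 ± 1.58 (SD, n = 3). Pdc101 over adh1, the 2 steps from pyruvate to ethanol, was 0.824, 0.741 and 0.761 in WT and 0.737, 0.812 and 0.800 in snf22-(D996A-E997A), which overlapped. In snf22∆ it was 1.00, 0.960 and 1.00, above all libraries of the other genotypes. Together adh1 and pdc101 held 1.06 ± 0.206% of the counts of a WT library (SD, n = 3), and this share was 1.55 ± 0.107% for snf22∆ and 1.93 ± 0.133% for snf22-(D996A-E997A).

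**Figure D3:**
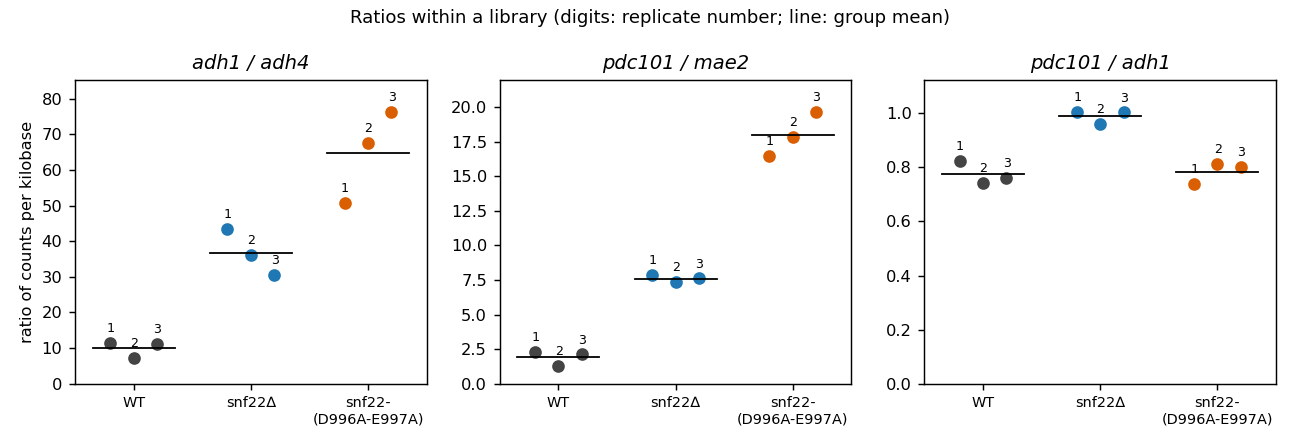
Ratio of counts per kilobase of adh1 to adh4, pdc101 to mae2 and pdc101 to adh1 in each of the 9 libraries (digits: replicate number, line: group mean). The first 2 ratios rise from WT through snf22∆ to snf22-(D996A-E997A) with no overlap, and the last is higher in snf22∆ than in the other genotypes.

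The 4 genes were set against a list of 25 genes of pyruvate metabolism, 24 of which had enough counts to be tested. In snf22∆, 5 of the 24 passed as higher, 11 as lower and 8 did not pass, with a median log2 fold change of −0.08. In snf22-(D996A-E997A), 7 passed as higher, 7 as lower and 10 did not, with a median of 0.00. The other 20 genes alone gave 4 higher and 9 lower in snf22∆ and 5 higher and 5 lower in snf22-(D996A-E997A). Of all genes tested, 30.2% passed as higher and 25.8% as lower in snf22∆. In snf22-(D996A-E997A), 25.8% of all genes passed as higher and 22.7% as lower. The snf22∆ count of 5 higher fell to 3 without snf22∆ replicate 1. Between the mutants 5 of the 24 passed as higher and 4 as lower, where 8.13% and 8.64% of all genes did. The other 20 genes alone gave 4 higher and 3 lower there. The 4 lower among the 24 became 2 without snf22∆ replicate 1 or without snf22∆ replicate 2.

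Other pyruvate decarboxylase genes were far below pdc101. Pdc201 rose from 150, 163 and 166 normalized counts in WT to 411, 334 and 321 in snf22∆ and 325, 404 and 358 in snf22-(D996A-E997A), with no overlap between WT and either mutant. Its log2 fold change was 1.15 and 1.18 (standard error 0.14 for both, edgeR quasi-likelihood adjusted p = 6.92e-05 and 7.48e-05), and it was called higher in both. Per kilobase, pdc201 reached only 146 and 149 normalized counts in the mutants. Pdc202 was lower in snf22∆ (log2 fold change −0.49, edgeR quasi-likelihood adjusted p = 0.00737) and higher in snf22-(D996A-E997A) (0.41, adjusted p = 0.0186). The latter passed under 11 of 15 alternative settings. Those where it did not pass included the fits without WT replicate 1 and without snf22-(D996A-E997A) replicate 1 or 3. The mutants differed by 0.90 on the log2 scale (edgeR quasi-likelihood adjusted p = 0.0006). The remaining one, pdc102, had raw counts of 0 to 1 in WT and in snf22-(D996A-E997A) and of 5 to 11 in snf22∆, too few to be tested.

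Among alcohol dehydrogenases, adh8 stayed at a low level of 148, 171 and 192 normalized counts per kilobase in the 3 genotypes, listed from WT to snf22-(D996A-E997A). The log2 fold change of adh8 was 0.21 for snf22∆ and 0.38 for snf22-(D996A-E997A) (edgeR quasi-likelihood adjusted p = 0.223 and 0.0463), and the latter passed under only 6 of 15 alternative settings. Adh1 thus remained the most abundant of the 3 alcohol dehydrogenases in all genotypes on the per-length scale. Acetaldehyde can also be oxidized by aldehyde dehydrogenases toward acetate. The aldehyde dehydrogenase gene atd1 had 9231, 14516 and 9552 normalized counts in WT, 20274, 15983 and 12578 in snf22∆ and 31116, 27924 and 28259 in snf22-(D996A-E997A). Only the last group was clear of WT: its log2 fold change was 1.39 (standard error 0.19, edgeR quasi-likelihood adjusted p = 0.000204), a called rise of 2.62-fold, while snf22∆ gave 0.55 (adjusted p = 0.0246). The snf22∆ value passed under 11 of 15 alternative settings, and it no longer did without WT replicate 1, WT replicate 3, snf22∆ replicate 1 or snf22∆ replicate 2. Another aldehyde dehydrogenase gene, atd2, rose by 0.47 in snf22∆ on the log2 scale (standard error 0.13, edgeR quasi-likelihood adjusted p = 0.0108), a value that did not pass without snf22∆ replicate 1, and was at 0.33 in snf22-(D996A-E997A) (adjusted p = 0.0591). Atd3 and acs1, the acetyl-CoA synthetase gene, did not pass in any comparison.

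Pyruvate that is not fermented enters mitochondria through a carrier made of Mpc1 and Mpc2, and both genes fell in both mutants. Mpc1 went from 7946, 10846 and 8509 normalized counts in WT to 5215, 5647 and 5501 in snf22∆ and 4939, 4773 and 4304 in snf22-(D996A-E997A). The log2 fold changes of mpc1 were −0.74 and −0.96 (edgeR quasi-likelihood adjusted p = 0.000247 and 5.09e-05), and those of mpc2 were −0.66 and −0.78 (adjusted p = 1.63e-05 and 6.24e-06). Of the pyruvate dehydrogenase genes, which make acetyl-CoA in the mitochondrion, dld1 fell in both mutants (−0.46 and −0.37, edgeR quasi-likelihood adjusted p = 0.00124 and 0.00546). The core subunit genes pda1, pdb1 and lat1 passed as lower in snf22∆, at −0.35, −0.19 and −0.32, and under 11, 6 and 13 of 15 alternative settings. They did not pass in snf22-(D996A-E997A), and neither did their differences between the mutants (edgeR quasi-likelihood adjusted p = 0.304, 0.0931 and 0.396). The other 2 genes of this group, pdx1 for a binding protein of the complex and pkp1 for the kinase that acts on it, were at 0.06 and 0.04 in snf22∆ and passed in no comparison. The pyruvate carboxylase gene pyr1, which refills the citric acid cycle from pyruvate, fell by 0.26 and by 0.58 on the log2 scale (edgeR quasi-likelihood adjusted p = 0.0135 and 0.000204). Pyk1 on the supply side fell by 0.36 in snf22∆ (edgeR quasi-likelihood adjusted p = 0.00185) and was at −0.00 in snf22-(D996A-E997A) (adjusted p = 0.986).

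**Figure D4:**
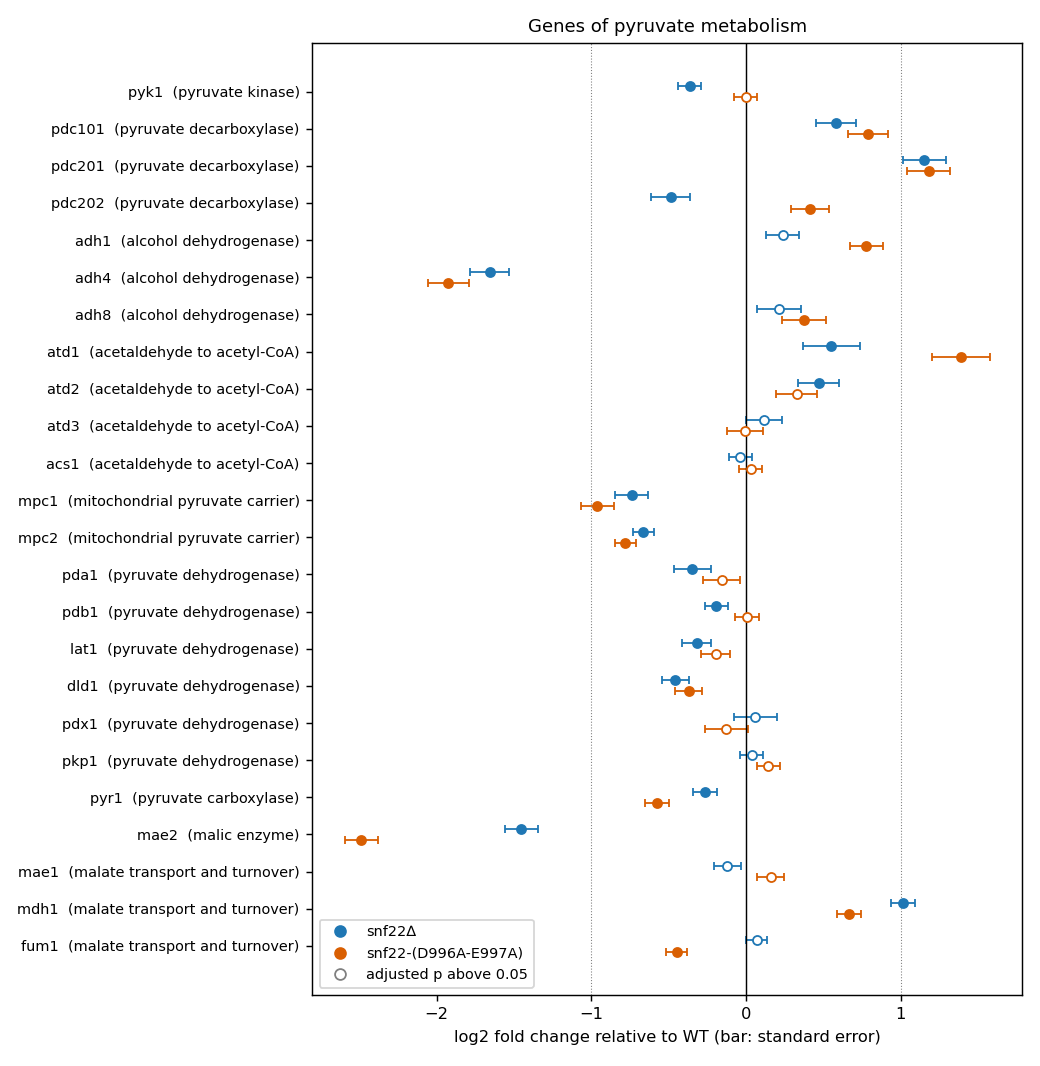
Log2 fold change relative to WT of the 24 tested genes of the pyruvate list in snf22∆ and snf22-(D996A-E997A), with standard errors, open where the adjusted p is above 0.05 and dotted lines at 2-fold. Adh4 and mae2 lie farthest to the left, and mpc1 and mpc2 lie left of 0 in both mutants. To the right of the upper line are pdc201 in both mutants, atd1 in snf22-(D996A-E997A) and, at its edge, mdh1 in snf22∆.

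Other genes of malate transport and turnover gave mixed values. The malate transporter gene mae1 had 22444, 26678 and 21716 normalized counts in WT, 20864, 22459 and 21791 in snf22∆ and 26390, 26980 and 25682 in snf22-(D996A-E997A). These ranges overlapped WT, with log2 fold changes of −0.12 and 0.16 (edgeR quasi-likelihood adjusted p = 0.249 and 0.146). The malate dehydrogenase gene mdh1 rose by 1.01 in snf22∆ and 0.66 in snf22-(D996A-E997A) on the log2 scale (edgeR quasi-likelihood adjusted p = 1.71e-06 and 6.22e-05). At 2.02-fold, the snf22∆ call stood at the edge and was met under 10 of 15 alternative settings. The fumarase gene fum1 was at 0.07 (edgeR quasi-likelihood adjusted p = 0.404) in snf22∆ and fell by 0.45 in snf22-(D996A-E997A) (adjusted p = 0.000429). Between the mutants, mae1 passed as higher in snf22-(D996A-E997A), by 0.28 (edgeR quasi-likelihood adjusted p = 0.0462). Mdh1 and fum1 passed as lower there, at −0.35 and −0.52 (edgeR quasi-likelihood adjusted p = 0.00986 and 0.000376). In the wider citric acid cycle list, 14 of 16 genes were tested. Sdh4 matched no gene name, and the name lsc1 belonged to a cyclin gene, so both were left out. Of them 3 passed as higher, 3 as lower and 8 did not in snf22∆, and 2, 7 and 5 in snf22-(D996A-E997A). The all-gene shares to read these against were 30.2% higher and 25.8% lower in snf22∆, and 25.8% and 22.7% in snf22-(D996A-E997A).

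Because adh1 and adh4 respond to zinc in fission yeast, 4 genes of zinc handling were read beside them. Loz1, the gene of the repressor that shuts off adh4 when zinc is plentiful, changed by 0.19 in snf22∆ and 0.22 in snf22-(D996A-E997A) on the log2 scale (edgeR quasi-likelihood adjusted p = 0.031 and 0.0215), and passed under 7 and 11 of 15 alternative settings. Zrt1, a zinc uptake transporter gene that is also turned on in scarce zinc, had 4286, 5472 and 4333 normalized counts in WT, 2224, 2501 and 2308 in snf22∆ and 2778, 2661 and 2659 in snf22-(D996A-E997A). It thus fell in both mutants without overlap, by 1.00 and 0.80 on the log2 scale (edgeR quasi-likelihood adjusted p = 1e-05 and 7.29e-05), and its snf22∆ call held under 9 of 15 alternative settings. The zinc transporter gene zhf1 fell by 0.47 and 0.27 (edgeR quasi-likelihood adjusted p = 0.00269 and 0.0478), the latter under only 5 of 15 alternative settings, and the metallothionein gene zym1 did not pass in either mutant (0.25 and −0.20, adjusted p = 0.228 and 0.342). Of the 4, 1 passed as higher, 2 as lower and 1 did not pass in each mutant, where 30.2% and 25.8% of all genes passed as higher and lower in snf22∆ and 25.8% and 22.7% did in snf22-(D996A-E997A). With so few genes the counts are not a result about the list.

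The genes whose pattern over the 9 libraries was most like that of adh4 and mae2 were found by the root mean square difference of log2 normalized counts, each centred on its WT mean, among 4789 coding genes. The rule picks genes for this likeness, so their values are a description. For adh4 these were SPAC1039.01, an amino acid transporter gene (difference 0.22), nce103, the carbonic anhydrase gene (0.24), and SPAC1002.16c, a carboxylic acid transporter gene (0.26). Their log2 fold changes were −1.52, −1.56 and −1.94 in snf22∆ and −1.65, −1.66 and −1.92 in snf22-(D996A-E997A), next to −1.66 and −1.92 for adh4. For mae2 they were ctt1, the catalase gene (0.18), SPBC1271.07c, an N-acetyltransferase gene (0.22), and SPBC1685.17 (0.32). Their log2 fold changes were −1.65, −1.55 and −1.48 in snf22∆ and −2.55, −2.40 and −2.13 in snf22-(D996A-E997A), next to −1.45 and −2.49 for mae2. Ctt1 had 5715, 10151 and 5461 normalized counts in WT, highest in WT replicate 2 as for mae2, while snf22∆ had 2282, 2330 and 2190 and snf22-(D996A-E997A) had 1349, 1172 and 1117.

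Gene order was read from the ASM294v3 annotation, which is a later version than the authors' build, so no positions are given. None of the 4 genes overlapped another counted gene. The genes beside adh4 (SPAC5H10.04 and SPAC5H10.07) had log2 fold changes of −0.35 and −0.59 in snf22∆, which did not pass (edgeR quasi-likelihood adjusted p = 0.0609 and 0.13), and in snf22-(D996A-E997A) the first fell by 0.74 (adjusted p = 0.0027) and the second was at −0.63 (adjusted p = 0.116). Beside mae2, ent3, a gene of a vesicle adaptor protein, rose by 0.50 in snf22∆ (edgeR quasi-likelihood adjusted p = 0.000323), and SPCC794.15 was at −0.03, so neither was lowered there. In snf22-(D996A-E997A) they were at −0.01 and −0.29, the latter passing (edgeR quasi-likelihood adjusted p = 0.0246). The neighbors of pdc101 went apart: pfl8, a flocculin gene, fell by 1.59 in snf22∆ and was at −0.01 in snf22-(D996A-E997A), while SPAC1F8.08 rose by 1.20 and 0.74. Next to adh1, the non-coding SPCC162.01c-antisense-1 rose by 0.77 and 0.97 (edgeR quasi-likelihood adjusted p = 9.92e-05 and 2.29e-05), and the coding gene beyond it, snp27, did not pass at −0.18 and −0.20. SPCC13B11.02c on the other side of adh1 had raw counts of 0 to 1 and was not tested. The antisense transcript known over adh1 was not analysed here.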

How the data were processed

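Poly(A)+ RNA of 9 libraries was measured. Per the labels and the paper's methods, the authors made stranded libraries, sequenced paired reads, used HISAT2 2.1.0 for alignment to the ASM294v2 build and HTSeq 0.10.0 for counts over PomBase exons. The authors deposited these raw counts per gene, unscaled. The strand setting is not given in the sources used here. On 600 coding genes at least 90% under counted genes of the other strand, the median WT count was 462, against 1100 for all 5156 coding IDs. The deposited tables of the authors' own comparisons (DESeq2 log2 fold changes, p-values and mean counts) were not used, except for their gene names and product descriptions, which the authors deposited as text beside other values.

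After TMM normalization, edgeR 4.0.16 in R 4.3.3 fitted all 9 libraries at once by group (glmQLFit, then glmQLFTest), two-sided, with Benjamini-Hochberg adjustment over 6091 genes (common biological coefficient of variation 0.104, 6 residual degrees of freedom). Normalized counts were scaled to the average effective library size, and folds were back-transformed from the fitted log2 values. The tests were checked on simulated counts. Depth was 15696972 to 22664218 counts, so that counting error was small for the 4 genes (2555 or more raw counts in each library) and the spread of replicates set the precision. Every replicate pair differed by more than sampling noise (chi-square per gene at least 5.15). One ID stood on more than 1 line and was summed. Of the 6988 IDs, 6836 matched the ASM294v3 annotation by locus tag, 12 by synonym and 140 not at all. The annotation was used only for gene order, strand, overlap, gene class and exon length. The named genes were the 4 members, lists for pyruvate metabolism, the citric acid cycle, zinc and mating type, the neighbors, snf22, and the 3 coding genes most like each called member. Members and lists were chosen with earlier results of these data known. The alternatives were DESeq2 1.42.0, its size factors in edgeR, library totals alone, no low-count filter, only the groups compared, the replicate number as a block, and leaving out each library.

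The labels number the replicates without saying that a number marks a shared day or batch. Deviations from group means correlated between same-numbered WT and snf22∆ libraries at 0.30, 0.25 and 0.47, which meets the rule used for pairing (every pair above 0.1). All printed values still come from the fit without a block, and the blocked fit is an alternative. They were −0.25, 0.05 and 0.19 between WT and snf22-(D996A-E997A), and −0.03, 0.10 and 0.05 between the mutants, which does not meet that rule.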

Additional observations from a re-analysis of the deposited data

How the results depend on the processing

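For the 4 genes in 3 comparisons, 178 of 180 alternative values kept their direction and their side of the threshold, and none changed sign. The 2 others were adh1 in snf22∆ against WT, which passed at 0.37 with library totals alone (edgeR quasi-likelihood adjusted p = 0.0223) and at 0.31 without WT replicate 1 (adjusted p = 0.0479). Its values ran from 0.11 to 0.37 over 15 alternatives (adjusted p 0.0223 to 0.31), and from 0.11 to 0.31 with 1 library left out. The number of the 4 genes called stayed at 2, 2 and 1 under every alternative run. Library totals alone moved the median of all genes from 0.02 to 0.16 in snf22∆ and to 0.11 in the other mutant; minus that median, adh1 in snf22∆ was at 0.21, against 0.22 with TMM. That scaling made the called genes of snf22∆ 250 higher and 141 lower, from 156 and 188, those of snf22-(D996A-E997A) 148 and 156, from 116 and 187, and the pyruvate list 8 higher and 7 lower in snf22∆, from 5 and 11. Without WT replicate 3, 244 and 179 genes were called higher in the mutants. Between the mutants, 495 genes passed as higher and 526 as lower, against 1077 and 891 with only the groups compared and 1049 and 814 without WT replicate 2, 244 and 279 without snf22∆ replicate 1, and 234 and 299 without snf22∆ replicate 2. The cause was not tested. With the replicate block, adh1 in snf22∆ was 0.24 (adjusted p = 0.0762), pdc101 0.59, adh4 −1.65 and mae2 −1.45, and the block changed no call of the 4 genes. For other genes of the pyruvate and zinc lists that passed, and the genes most like adh4 and mae2, 559 alternative values relative to WT still passed, 56 did not, and none changed sign. With 3 replicates, differences of the size of adh4 and pdc101 between the mutants lay within the spread.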
